A study of Mus musculus with 6 samples.

Results

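The NADPH oxidase and oxidative stress genes described here were 9 genes, chosen by symbol from the gene read count table: *Cybb*, *Cyba*, *Ncf1*, *Ncf4*, *Rac2*, *Nox4*, *Hmox1*, *Sod2*, and *Nqo1*. All 9 were found among its 48440 rows, each as a single row, and all 9 passed the filter on low counts that left 18593 genes for testing. They were compared between dorsal root ganglia (DRGs, which hold the cell bodies of sensory neurons) of wild-type male mice that had received AAV5-*Gfp* (3 libraries) and those that had received AAV5-*V1+V2* (3 libraries). Both vectors are adeno-associated virus of serotype 5 and were microinjected into the L3/4 DRGs of one side. AAV5-*Gfp* carries green fluorescent protein and was the control, and AAV5-*V1+V2* was a mixture of a vector for each of the variants V1 and V2 of *NIS-lncRNA*, a long noncoding RNA. Every mouse had thus been injected and had received virus, none had a nerve injury, and the animal's age is not given. The deposited description gives collection of the DRGs at 5 weeks after microinjection and the expression comparison at 4 weeks. Nothing says whether a library came from 1 mouse or from several, so p-values measure only the spread between these libraries. The number of vector preparations behind each group is not given. The lncRNA itself was not analysed here.

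The NADPH oxidase of phagocytes makes superoxide by passing electrons from NADPH across a membrane to oxygen. Its membrane core is gp91phox (encoded by *Cybb*, also called NOX2) with its partner p22phox (*Cyba*). Its cytosolic part includes the organizer p47phox (*Ncf1*) and p40phox (*Ncf4*), which move to the core upon activation together with a small GTPase, Rac2 in most blood leukocytes. NOX4 also pairs with p22phox, is made by non-phagocytic cells, needs none of the cytosolic subunits, and mainly releases hydrogen peroxide. Heme oxygenase 1 (*Hmox1*), mitochondrial superoxide dismutase (*Sod2*), and the quinone reductase NQO1 are enzymes of the defense against oxidants, and *Hmox1* and *Nqo1* are known targets of the transcription factor NRF2. In the DRG, oxidants from macrophages and neurons have been studied in connection with pain after nerve injury.

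Promoter sequences are shown for the 2 subunits of the membrane core and the organizer subunit, whose read counts differed between the groups, and for *Sod2*, whose counts overlapped between the groups. They are the stretch from 250 bases before to 30 bases after the RefSeq transcription start in build GRCm38.p6, on the gene's own strand and 5′ to 3′. Capitals mark a GAGGAA, the core letters bound by the myeloid and B cell factor PU.1, or TTCCTC where it lies on the opposite strand. Motifs were searched on both strands of the full RefSeq windows, which run slightly further than the printed stretch.
*Cybb* (chrX:9469295-9469574, minus strand): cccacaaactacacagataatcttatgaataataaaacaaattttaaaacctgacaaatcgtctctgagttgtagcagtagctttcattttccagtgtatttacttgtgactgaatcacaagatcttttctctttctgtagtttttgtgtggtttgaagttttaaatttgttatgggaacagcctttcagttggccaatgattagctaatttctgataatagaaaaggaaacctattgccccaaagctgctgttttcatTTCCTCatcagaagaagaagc
*Cyba* (chr8:122432911-122433190, minus strand): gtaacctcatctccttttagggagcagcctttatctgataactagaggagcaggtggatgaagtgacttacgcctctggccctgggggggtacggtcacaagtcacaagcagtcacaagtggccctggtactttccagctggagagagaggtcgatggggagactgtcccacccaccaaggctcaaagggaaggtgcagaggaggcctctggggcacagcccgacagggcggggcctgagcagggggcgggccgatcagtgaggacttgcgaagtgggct
*Ncf1* (chr5:134229596-134229875, minus strand): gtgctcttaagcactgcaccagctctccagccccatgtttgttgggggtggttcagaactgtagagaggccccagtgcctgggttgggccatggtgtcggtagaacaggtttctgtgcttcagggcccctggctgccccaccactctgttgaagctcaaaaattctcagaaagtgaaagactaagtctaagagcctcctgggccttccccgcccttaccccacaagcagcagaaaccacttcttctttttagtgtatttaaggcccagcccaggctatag
*Sod2* (chr17:13007589-13007868, plus strand): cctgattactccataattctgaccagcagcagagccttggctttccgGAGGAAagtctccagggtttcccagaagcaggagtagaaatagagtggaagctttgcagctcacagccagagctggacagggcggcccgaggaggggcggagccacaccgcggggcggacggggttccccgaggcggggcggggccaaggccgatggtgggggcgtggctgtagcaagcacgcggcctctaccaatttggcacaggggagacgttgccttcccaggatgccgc
RefSeq windows were at hand for 6 of the 9 genes (*Cyba*, *Cybb*, *Ncf1*, *Nox4*, *Nqo1*, and *Sod2*). GAGGAA was found in 2 of the 6, at position 10 after the *Cybb* start on the opposite strand and at position -203 from the *Sod2* start on the same strand, and in 28.3% of all 32851 windows. TGACNNNGC, the core letters of the antioxidant response element to which NRF2 binds, was in 0 of the 6 and in 12.4% of all windows. These matches are letters in a window and not binding sites, and the gene bodies and the more distant sequence were not searched.

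Of the 9 genes, 5 had higher read counts with AAV5-*V1+V2* by the quasi-likelihood test of edgeR (Benjamini-Hochberg adjusted p under 0.05), and 0 had lower counts. At an unadjusted p under 0.05 these counts were 7 and 0, beside 3577 higher and 2878 lower of all 18593 genes tested. DESeq2, limma-voom, and edgeR's exact test called none of the 9 lower. Among all genes tested, 10.1% were called higher and 5.27% lower at an adjusted p under 0.05. All 5 were subunits of the phagocyte oxidase, and *Nox4* and the 3 antioxidant enzymes were not called. The libraries of both groups did not overlap for 7 genes, higher with AAV5-*V1+V2* for 6 of them and lower for 1, beside 23.4% of all genes tested that did not overlap and were higher and 22.0% that were lower. The median log2 fold change of all genes tested was -0.0003.

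Total read counts were between 32025612 and 34764282 per library. Among markers of other cells, 13 of 16 for macrophages and monocytes were higher with AAV5-*V1+V2*, with a summed level of 303 to 349 CPM (reads scaled to library size, TMM included) in the AAV5-*Gfp* libraries and 681 to 1723 CPM in the AAV5-*V1+V2* libraries. For B and plasma cells 9 of 10 were higher (12.8 to 22.0 and 257 to 401 CPM), for T and natural killer cells 9 of 11 (5.40 to 13.3 and 45.4 to 100 CPM), for dendritic cells 5 of 7 (53.6 to 59.3 and 74.2 to 98.6 CPM), and for neutrophils 2 of 11, *Csf3r* and *Camp* (143 to 162 and 201 to 405 CPM). The neutrophil count varied with the test, with 8 of 11 by DESeq2 and by edgeR's exact test, 0 by limma-voom, and 9 of 11 by the quasi-likelihood test without adjustment (p under 0.05). None of these markers was at 0 in every library. DRG neuron markers, which should be abundant in this tissue, summed to 9139 to 9793 and 5982 to 8641 CPM, without overlap, with 1 of 10 (*Rbfox3*) lower. DESeq2 and edgeR's exact test each called 2 of 10 lower, and limma-voom called 1. The summed markers of satellite glia (2978 to 3331 and 2828 to 3252 CPM) and of Schwann cells (3217 to 3981 and 3431 to 3871 CPM) overlapped between the groups. Those of fibroblasts did not overlap (956 to 1255 and 1494 to 2094 CPM), with 2 of 6 higher, *Col3a1* and *Dpt*, and 4 of 6 at an unadjusted p under 0.05, and neither did those of endothelium (153 to 163 and 165 to 195 CPM), with 1 of 7 higher, *Pecam1*. Single endothelium markers went both ways, with 1 higher and 2 lower at an unadjusted p under 0.05 and a median log2 fold change of 0.02. The called markers named here were chosen after their values were seen. Replicate 1 of AAV5-*V1+V2* had the highest sum of macrophage, T cell, and neutrophil markers and the lowest of neuron markers, and it was also the highest library for each of the 5 oxidase genes that were called. In ganglion RNA, more cells of a type and more RNA per cell cannot be told apart, and the part of these cell type markers in the results below was not tested.

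**Figure D1:**
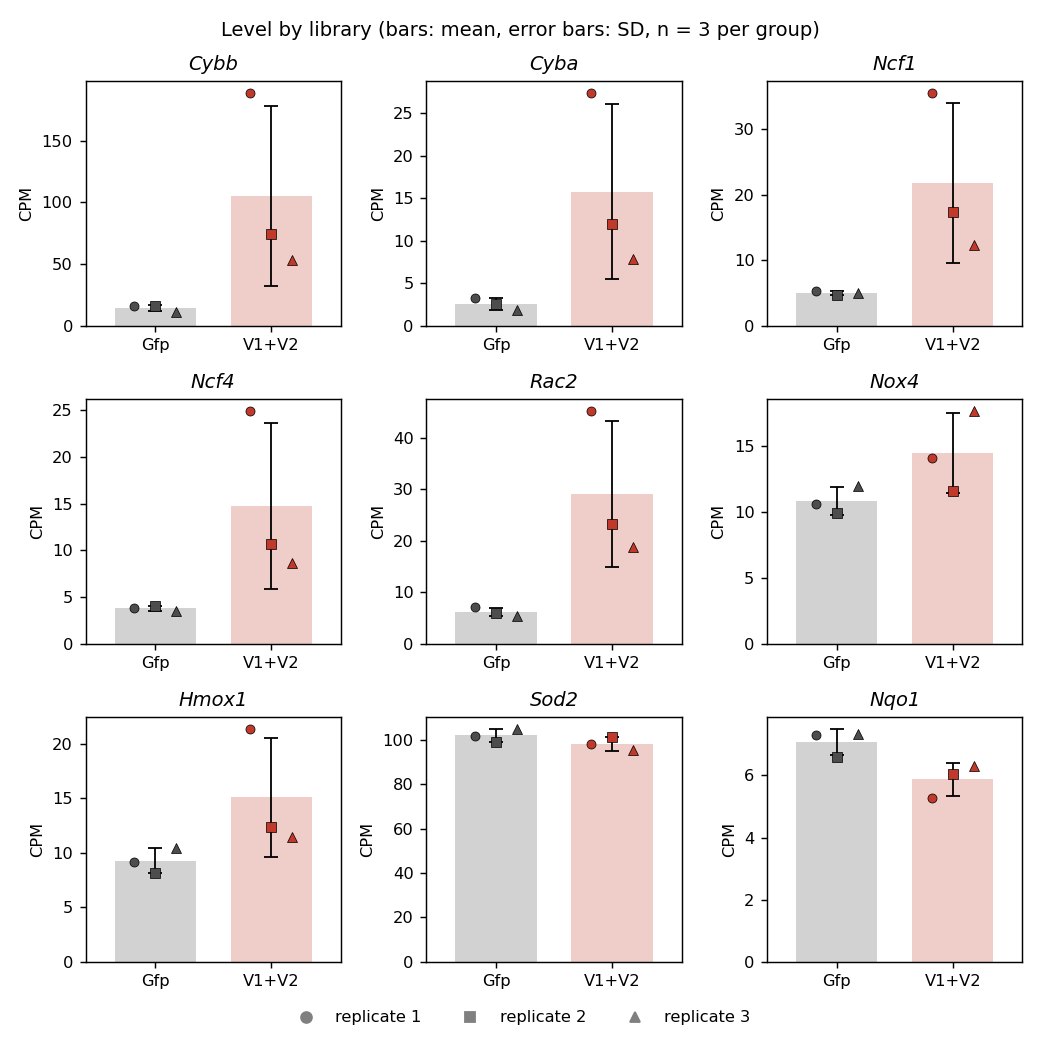
Level of each of the 9 genes, in CPM, in the 3 AAV5-*Gfp* and the 3 AAV5-*V1+V2* libraries; bars are means, error bars are SD, and the point shape gives the replicate number. The 5 called oxidase genes lie higher in each AAV5-*V1+V2* library than in any AAV5-*Gfp* library, replicate 1 is the highest, and *Sod2* lies between 95.2 and 105 CPM in all 6 libraries.

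Both subunits of the membrane core were higher with AAV5-*V1+V2*. *Cybb* (chrX:9435252-9487771, GRCm38), which encodes the catalytic subunit, had 524, 537, and 355 reads in the AAV5-*Gfp* libraries and 6211, 2466, and 1813 reads in the AAV5-*V1+V2* libraries. The groups did not overlap, and replicate 1 of AAV5-*V1+V2* had more reads than its other 2 replicates together. The level rose from 14.4 ± 2.62 to 105 ± 73.1 CPM (SD, n = 3 each), a 7.32-fold difference in the fit (95% interval 3.40 to 15.7, log2 fold change 2.87 ± 0.47 SE, edgeR adjusted p = 0.0160). This was the largest fold change of the 9 genes and ranked 224 by size among the 1872 genes called higher.

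*Cyba* (chr8:122424776-122432930), which encodes p22phox, had 106, 88, and 57 reads with AAV5-*Gfp* and 903, 399, and 270 reads with AAV5-*V1+V2*. Its libraries kept the order of *Cybb* within AAV5-*V1+V2*, and the groups did not overlap. The level rose from 2.55 ± 0.729 to 15.8 ± 10.3 CPM (log2 fold change 2.62 ± 0.48 SE, a 6.17-fold difference, edgeR adjusted p = 0.0191). Reads of *Cyba* per read of *Cybb* were 0.202, 0.164, and 0.161 with AAV5-*Gfp* and 0.145, 0.162, and 0.149 with AAV5-*V1+V2*. This ratio overlapped between the groups.

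*Ncf1*, *Ncf4*, and *Rac2* were higher as well, with smaller estimated fold changes than the membrane core. Their 95% intervals overlapped those of *Cybb* and *Cyba*, and differences between the genes were not tested. *Ncf1* (chr5:134220053-134229625), the organizer subunit, had 170, 162, and 153 reads with AAV5-*Gfp* and 1171, 580, and 422 reads with AAV5-*V1+V2*. The AAV5-*Gfp* libraries were close to each other and all lay below the AAV5-*V1+V2* libraries. The level rose from 4.95 ± 0.299 to 21.8 ± 12.2 CPM (log2 fold change 2.14 ± 0.37 SE, adjusted p = 0.0176). Its exons overlap those of *Gtf2ird2* on the other strand over 408 bases, 11.14% of its exonic length, and the use of strand in counting is not given in the sources used here, so that its count is in part uncertain.

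*Ncf4* (chr15:78244801-78262580), which encodes the p40phox subunit that binds phosphoinositides on phagosomes, had 123, 138, and 110 reads with AAV5-*Gfp* and 821, 357, and 295 reads with AAV5-*V1+V2*. The groups did not overlap. The level rose from 3.77 ± 0.231 to 14.8 ± 8.89 CPM (log2 fold change 1.97 ± 0.39 SE, adjusted p = 0.0233). *Rac2* (chr15:78559167-78572783), the GTPase that takes part in oxidase activation in leukocytes, had 229, 206, and 170 reads with AAV5-*Gfp* and 1491, 772, and 647 reads with AAV5-*V1+V2*. All its AAV5-*V1+V2* libraries were higher than the AAV5-*Gfp* libraries. The level rose from 6.16 ± 0.845 to 29.1 ± 14.2 CPM (log2 fold change 2.24 ± 0.33 SE, adjusted p = 0.0144), the smallest adjusted p of the 9 genes.

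Of the other genes of the complex, *Rap1a*, a GTPase that copurifies with the membrane core, had 2626, 2681, and 2385 reads against 4097, 3297, and 3310 reads and rose by 0.44 ± 0.10 on the log2 scale (adjusted p = 0.0341). *Rac1*, which is made by nearly all cells, differed by 0.08 ± 0.068 (adjusted p = 0.450), and its libraries overlapped. With *Rap1a* and *Rac1* counted, 6 of the 7 genes of the complex reported here were called, each of them higher, with a median log2 fold change of 2.14. *Cybc1* was not matched by its symbol.

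**Figure D2:**
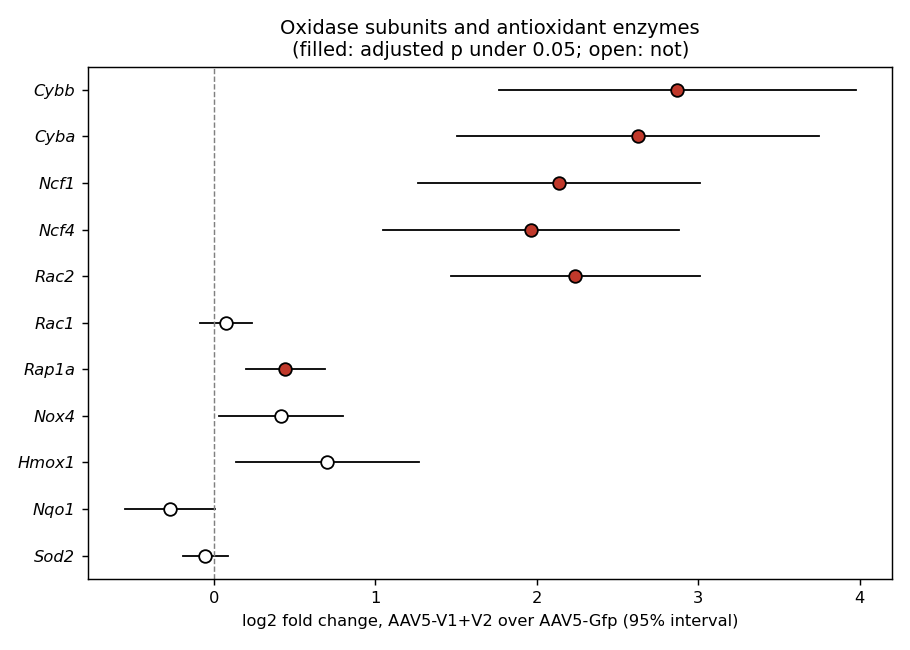
Log2 fold change (AAV5-*V1+V2* over AAV5-*Gfp*, x axis) with its 95% interval for the 9 genes and for *Rac1* and *Rap1a*; filled points passed an adjusted p of 0.05 with edgeR (n = 3 per group). The intervals of *Cybb*, *Cyba*, *Ncf1*, *Ncf4*, and *Rac2* lie above 1 on the log2 scale and those of *Nqo1* and *Sod2* include 0.

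*Nox4* (chr7:87246096-87398710), the oxidase of non-phagocytic cells, had 342, 343, and 373 reads with AAV5-*Gfp* and 463, 385, and 605 reads with AAV5-*V1+V2*. Its highest AAV5-*V1+V2* library was replicate 3 and not replicate 1. After scaling, the groups overlapped, with 12.0 CPM in replicate 3 of AAV5-*Gfp* and 11.6 CPM in replicate 2 of AAV5-*V1+V2*. The level was 10.8 ± 1.04 and 14.4 ± 3.05 CPM, and the 1.33-fold difference (95% interval 1.02 to 1.74, log2 fold change 0.42 ± 0.16 SE) did not pass the test (edgeR adjusted p = 0.119). The interval leaves out the fold changes of the 5 oxidase genes that were called. Reads of *Nox4* per read of *Cybb* were 0.653, 0.639, and 1.05 with AAV5-*Gfp* and 0.0745, 0.156, and 0.334 with AAV5-*V1+V2*. Set the other way round, the log2 ratio of *Cybb* to *Nox4* was 0.40 ± 0.405 and 2.67 ± 1.08 (SD, n = 3 each), a difference of 2.27 without overlap of the groups, with an exact two-sided permutation p of 0.1, the smallest that 3 libraries against 3 can give.

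None of the 3 antioxidant enzymes was called, and at an unadjusted p under 0.05 *Hmox1* alone passed. *Hmox1* (chr8:75093621-75100589), which degrades heme, had 296, 283, and 326 reads with AAV5-*Gfp* and 704, 412, and 394 reads with AAV5-*V1+V2*. The groups did not overlap, and replicate 1 of AAV5-*V1+V2* stood above the other 2. The level was 9.26 ± 1.14 and 15.1 ± 5.48 CPM, a 1.63-fold difference (95% interval 1.10 to 2.42, log2 fold change 0.70 ± 0.24 SE, edgeR adjusted p = 0.0891). With DESeq2 its adjusted p was 0.0307 and with edgeR's exact test 0.0413, at the same fold change.

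*Sod2* (chr17:13006846-13040063), which removes superoxide in mitochondria, had 3287, 3430, and 3274 reads with AAV5-*Gfp* and 3226, 3375, and 3266 reads with AAV5-*V1+V2*. These libraries lay within a narrow range and overlapped between the groups. The level was 102 ± 2.97 and 98.2 ± 3.09 CPM, with a fold of 0.964 (95% interval 0.875 to 1.06, edgeR adjusted p = 0.553), so that a change of the size of any of the 5 called genes lay outside the interval. *Nqo1* (chr8:107388225-107403206), which reduces quinones, had 236, 229, and 229 reads with AAV5-*Gfp* and 174, 201, and 216 reads with AAV5-*V1+V2*. It was the only 1 of the 9 genes with every AAV5-*V1+V2* library below every AAV5-*Gfp* library. The level was 7.09 ± 0.414 and 5.87 ± 0.524 CPM (fold 0.829, 95% interval 0.682 to 1.01, log2 fold change -0.27 ± 0.12 SE, edgeR adjusted p = 0.157), which did not pass the test.

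To set levels of different genes side by side, CPM was divided by the exonic length in kilobases, taken over all annotated isoforms. With AAV5-*Gfp*, *Sod2* was the highest of the 9 genes at 10.2 ± 0.296 CPM per kilobase, followed by *Hmox1* at 5.29 ± 0.653 and *Nqo1* at 4.56 ± 0.267. The oxidase genes followed, with *Cybb* at 2.47 ± 0.451, *Cyba* at 2.45 ± 0.702, *Rac2* at 1.99 ± 0.272, *Ncf4* at 1.87 ± 0.114, *Ncf1* at 1.35 ± 0.0816, and *Nox4* at 1.28 ± 0.123 CPM per kilobase. In this order, *Sod2* from *Hmox1*, *Nqo1* from *Cybb*, and *Ncf4* from *Ncf1* were apart in their ranges over 3 libraries, and the other neighbors overlapped. With AAV5-*V1+V2*, *Cybb* was the highest at 18.1 ± 12.6 and *Cyba* next at 15.2 ± 9.93 CPM per kilobase. *Sod2* was at 9.81 ± 0.309, *Rac2* at 9.39 ± 4.57, *Hmox1* at 8.62 ± 3.13, *Ncf4* at 7.31 ± 4.40, *Ncf1* at 5.94 ± 3.34, *Nqo1* at 3.78 ± 0.337, and *Nox4* at 1.70 ± 0.360. All neighbors in that second order overlapped except *Nqo1* and *Nox4*. *Nox4* was thus the lowest of the 9 per length in both groups.

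**Figure D3:**
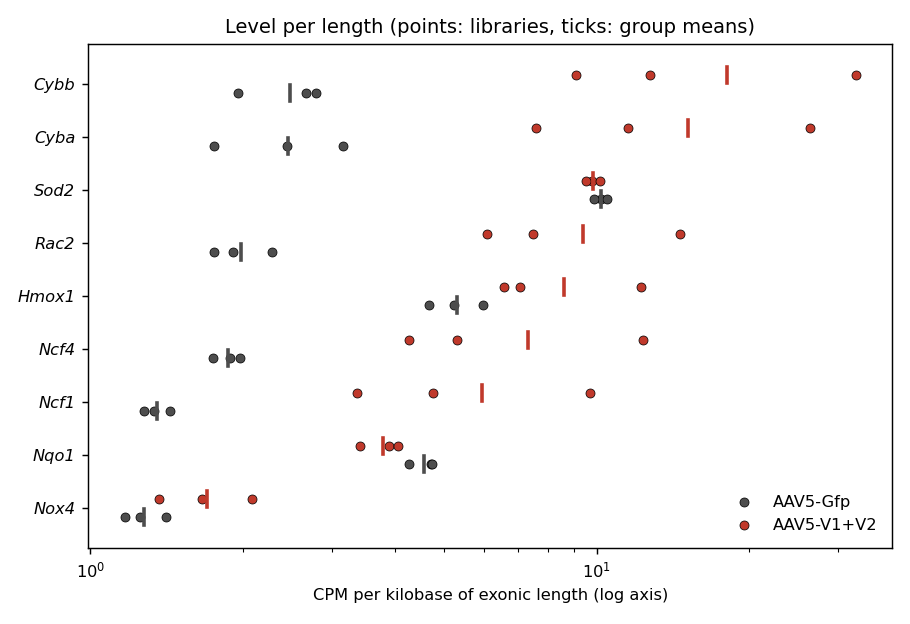
Level per length of the 9 genes, in CPM per kilobase of exonic length on a log axis, ordered by the AAV5-*V1+V2* mean; points are libraries (n = 3 per group) and ticks are group means. With AAV5-*Gfp* the 3 antioxidant enzymes lie above all oxidase genes, and with AAV5-*V1+V2* *Cybb* and *Cyba* have the highest means, with a wide spread between libraries.

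The oxidase genes were also set against *Csf1r*, the receptor for colony stimulating factor 1 that marks monocytes and macrophages. *Csf1r* had 1136, 1167, and 706 reads with AAV5-*Gfp* and 4364, 2353, and 1976 reads with AAV5-*V1+V2*, and rose by 1.51 ± 0.32 SE on the log2 scale (adjusted p = 0.0271). Reads of *Cybb* per read of *Csf1r* were 0.461, 0.460, and 0.503 with AAV5-*Gfp* and 1.42, 1.05, and 0.918 with AAV5-*V1+V2*. The groups did not overlap, and the log2 ratio went from -1.08 ± 0.0731 to 0.15 ± 0.325 (SD, n = 3 each), a difference of 1.23 with an exact two-sided permutation p of 0.1, the smallest possible. Against the summed CPM of the 16 macrophage and monocyte markers, the CPM of *Cybb* amounted to 4.66%, 4.57%, and 3.75% with AAV5-*Gfp* and 11.0%, 7.83%, and 7.76% with AAV5-*V1+V2*. *Cybb* is not among these markers, so this is a ratio to their sum, and it was higher in each AAV5-*V1+V2* library. *Lyz2*, the most abundant of the 16 and named here after its values were seen, had 2885, 3248, and 1999 reads against 32528, 13912, and 9317 reads. It rose by 2.76 on the log2 scale (edgeR adjusted p = 0.0167), near the 2.87 of *Cybb* and above the 1.51 of *Csf1r*. The median log2 fold change of the 16 markers was 1.71, and 3 of them were not called. The rise of *Cybb* per macrophage transcript thus depends on the marker used, and a ratio to *Lyz2* was not tested. *Csf1r* and these markers do not cover every cell type that makes *Cybb*, and markers of B cells and neutrophils, which also have this oxidase, were higher in sum in every AAV5-*V1+V2* library, as given above.

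The other genes of the complex did not keep 1 ratio to *Csf1r*. Reads of *Cyba* per read of *Csf1r* were 0.0933, 0.0754, and 0.0807 with AAV5-*Gfp* and 0.207, 0.170, and 0.137 with AAV5-*V1+V2*, without overlap. For *Rac2* they were 0.202, 0.177, and 0.241 against 0.342, 0.328, and 0.327, again without overlap. *Ncf1* (0.139 to 0.217 against 0.214 to 0.268) and *Ncf4* (0.108 to 0.156 against 0.149 to 0.188) overlapped between the groups. Set against *Csf1r* in the same way, the ratios of *Hmox1* and *Nox4* went in the other direction, while *Csf1r* itself rose. The levels of *Hmox1* and *Nox4* were not lower, with log2 fold changes of 0.70 and 0.42, and neither gene was called. *Hmox1* per read of *Csf1r* was 0.243 to 0.462 against 0.161 to 0.199, without overlap, and *Nox4* was 0.294 to 0.528 against 0.106 to 0.306, with overlap. The ratios of these other genes are given as values and were not tested.

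**Figure D4:**
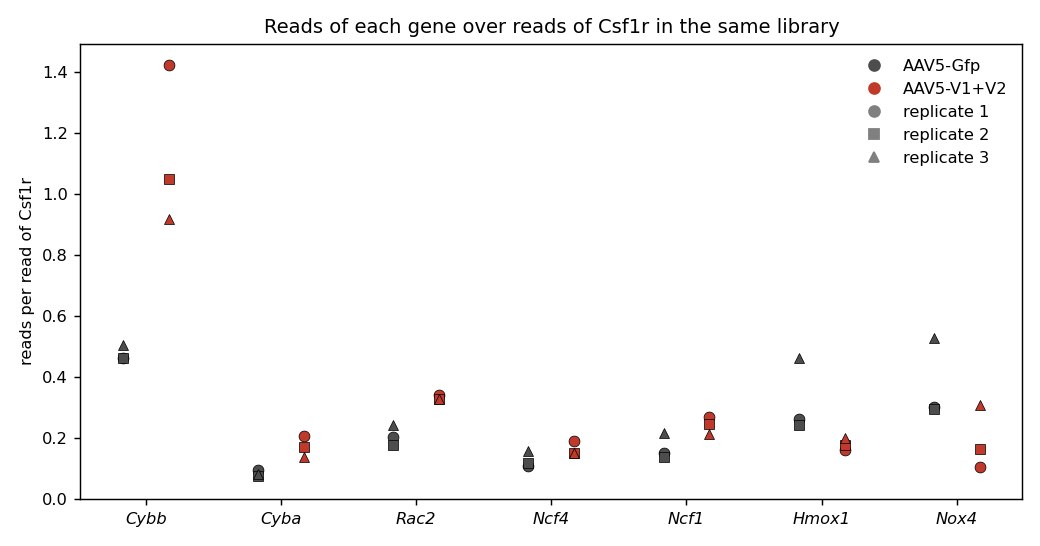
Reads of each gene (x axis) per read of *Csf1r* in the same library (y axis) for 7 genes, with AAV5-*Gfp* in gray and AAV5-*V1+V2* in red and the replicate number given by the point shape. *Cybb* lies between 0.460 and 0.503 in the AAV5-*Gfp* libraries and between 0.918 and 1.42 in the AAV5-*V1+V2* libraries. The ratio of *Hmox1* to *Csf1r* is lower with AAV5-*V1+V2*, although the level of *Hmox1* is not.

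Some genes tied to oxidase activity were called in the same direction. Of 12 genes for activation of the phagocyte oxidase, 7 were called, each of them higher, and 5 were not, with a median log2 fold change of 1.21. Among all genes tested, 10.1% were called higher and 5.27% lower. At an unadjusted p under 0.05, 9 were higher and 1 lower, beside 3577 higher and 2878 lower of all 18593 genes tested. *Hvcn1*, the proton channel that balances the charge moved by the oxidase, had 170, 127, and 122 reads against 1642, 740, and 671 reads and rose by 2.84 ± 0.38 SE on the log2 scale (adjusted p = 0.0144). The hematopoietic Rac exchange factors *Vav1* (2.25 ± 0.34 SE) and *Dock2* (2.16 ± 0.31 SE) rose as well, both with an adjusted p of 0.0144. *Plcg2*, *Arhgdib*, *Pik3cg*, and *Pik3cd*, named here after their values were seen, were the other 4 that were called.

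Of 10 other NADPH oxidases and their partners, 7 were tested, *Nox4* among them, and 0 were called, with a median log2 fold change of 0.07. At an unadjusted p under 0.05 edgeR's quasi-likelihood test had 1, *Nox4*, and DESeq2, limma-voom, and edgeR's exact test also called 0 after adjustment. *Nox3* (log2 fold change -0.61, adjusted p = 0.263), *Poldip2* (-0.14, adjusted p = 0.282), and *Noxo1* (0.31, adjusted p = 0.311) did not pass the test.

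Among 12 other oxidant sources 3 were higher and 1 lower, beside 10.1% and 5.27% of all genes tested. The median log2 fold change of this list was 0.20. *Nos2*, the inducible nitric oxide synthase of activated macrophages, had 9, 15, and 9 reads with AAV5-*Gfp* and 1021, 176, and 111 reads with AAV5-*V1+V2*. The groups were far apart, and replicate 1 of AAV5-*V1+V2* again had the most reads. *Nos2* rose by 5.28 ± 1.03 SE on the log2 scale (adjusted p = 0.0225). Xanthine dehydrogenase *Xdh* (1.09 ± 0.24 SE, adjusted p = 0.0286) and the lipoxygenase *Alox15* (1.26 ± 0.31 SE, adjusted p = 0.0378) rose too. The gene that fell was *Aox1*, an aldehyde oxidase (-0.43 ± 0.12 SE, adjusted p = 0.0481), named after its values were seen. It was no longer called when scaled by library totals only or with limma-voom, which called 1 of the 12 genes higher.

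On the side of removal, 0 of 15 genes for superoxide and peroxide were called by edgeR's quasi-likelihood test, with a median log2 fold change of 0.06. At an unadjusted p under 0.05 there were 3 higher and 2 lower, beside 3577 higher and 2878 lower of all 18593 genes tested. After adjustment, DESeq2 called 0 higher and 1 lower, and limma-voom and edgeR's exact test called 0. For this list and the next 2, the shares of all genes called were 10.1% higher and 5.27% lower. *Gpx8* (0.36, adjusted p = 0.0802), catalase *Cat* (-0.23, adjusted p = 0.0808), and peroxiredoxin *Prdx1* (0.29, adjusted p = 0.0928) came nearest. Of 10 genes of the thioredoxin system 1 was called, and it was higher, with a median of -0.03. That gene was *Txnip*, which binds thioredoxin and limits its activity (0.51 ± 0.11 SE, adjusted p = 0.0278). Of 15 genes of glutathione synthesis and transfer 1 was called, also higher, with a median of -0.09. It was *Mgst1*, a microsomal glutathione transferase, at 281, 277, and 265 reads against 589, 436, and 378 reads (0.74 ± 0.18 SE, adjusted p = 0.0361). At an unadjusted p under 0.05, 1 gene of this list was higher and 4 lower. DESeq2, edgeR's exact test, and the replicate block each called 1 higher and 2 lower, and limma-voom called none in either direction. *Gclm*, a subunit of the enzyme for the first step of glutathione synthesis, had -0.30 (adjusted p = 0.0509).

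Of 20 genes of NRF2 regulation and its targets, which include *Hmox1* and *Nqo1*, 3 were higher and 2 lower. Among all genes tested, 10.1% were higher and 5.27% lower, and the median log2 fold change of this list was -0.01. The 3 that rose encode transcription factors: *Nfe2l2*, NRF2 itself (0.58 ± 0.15 SE, adjusted p = 0.0435), *Bach1*, a repressor of *Hmox1* (0.39 ± 0.096 SE, adjusted p = 0.0378), and *Maff*, a small Maf partner (0.88 ± 0.22 SE, adjusted p = 0.0401). The 2 that fell, named after their values were seen, were *Aox1* and malic enzyme *Me1* (-0.43, adjusted p = 0.0466). With library totals only, 3 genes of this list were higher and none lower, and with limma-voom 1 was higher and none lower, whereas 3 were lower in each at an unadjusted p under 0.05. Of 12 genes tested for heme and iron handling, with *Hmox1* among them, 2 were called, both higher, with a median of 0.35. *Slc11a1*, a metal transporter of phagosomes, had 97, 106, and 83 reads against 804, 377, and 271 reads and rose by 2.32 ± 0.41 SE (adjusted p = 0.0176). Haptoglobin *Hp*, which binds free hemoglobin, rose by 1.59 ± 0.41 SE (adjusted p = 0.0432). DESeq2 and edgeR's exact test called 4 genes of this list higher, and limma-voom 1.

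**Figure D5:**
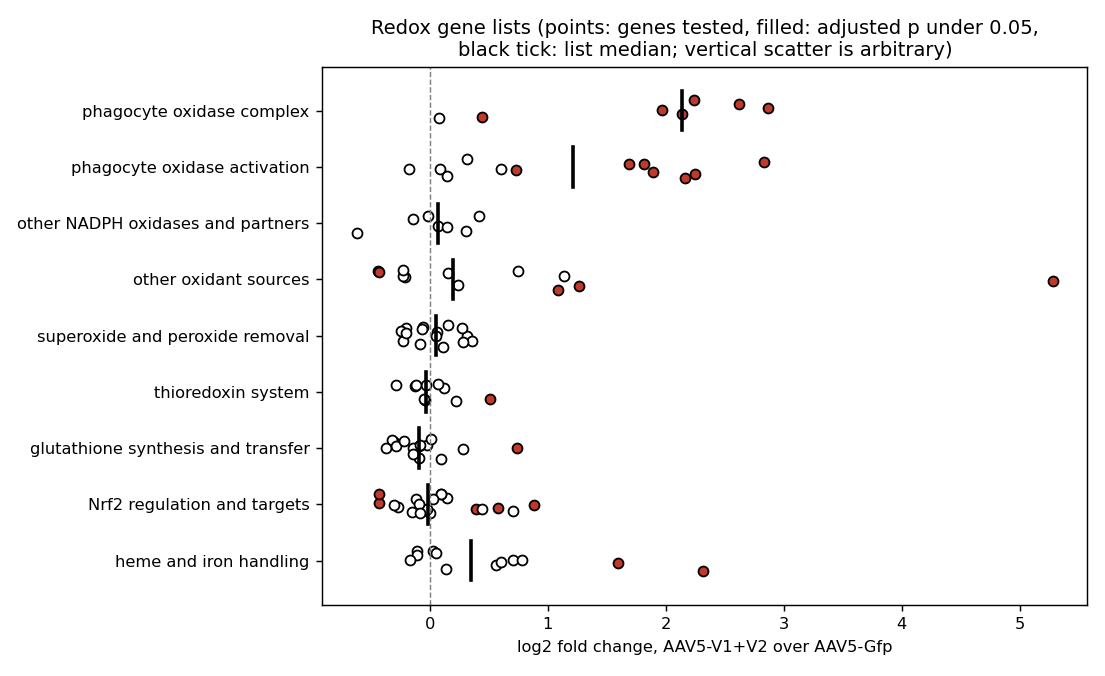
Log2 fold change (AAV5-*V1+V2* over AAV5-*Gfp*, x axis) of each tested gene in 9 lists of oxidase and redox genes; filled points passed an adjusted p of 0.05, black ticks are list medians, and the vertical scatter within a list is arbitrary. The medians are 2.14 for the phagocyte oxidase complex and 1.21 for its activation, those of the other lists lie between -0.09 and 0.35, and the point farthest to the right is *Nos2* at 5.28.

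By Pearson correlation of log2 CPM over the 6 libraries, the genes most like *Cybb* among the 11120 genes whose log2 CPM averaged 3 or more were *Akna*, *Tgfbr2*, *Tnfrsf1b*, *Fermt3*, and *Lyz2* (r of 0.999 to 1.00). *Lyz2*, lysozyme of myeloid cells, is among the macrophage markers. Those most like *Nox4* were *Ggnbp2* (r = 0.988), *Alg10b* (r = 0.976), *Cnbd2* (r = 0.974), *Eef2kmt* (r = 0.966), and *Mars* (r = 0.954), and none of these 5 was called. The libraries share their groups in both rankings, so that any gene far apart between the groups correlates with *Cybb*.

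The 5 calls depended on having all 3 AAV5-*Gfp* libraries. Without AAV5-*Gfp* replicate 1, 2, or 3, 0, 0, and 0 of the 9 genes were called higher by edgeR's quasi-likelihood test, with 5, 5, and 7 at an unadjusted p under 0.05. Among all genes, 1.35%, 0.0634%, and 0.0792% were then called higher. At an unadjusted p under 0.05, 3086 of 18975, 2916 of 18917, and 2932 of 18947 genes tested were higher. In these fits the adjusted p of the 5 genes was between 0.05002 (*Rac2*, just above the threshold) and 0.106 (*Ncf4*). In the same fits the log2 fold change was 2.73 to 2.97 for *Cybb*, 2.43 to 2.85 for *Cyba*, 2.10 to 2.18 for *Ncf1*, 1.92 to 2.01 for *Ncf4*, and 2.16 to 2.35 for *Rac2*. Leaving out replicate 1 of AAV5-*V1+V2*, the library with the most oxidase reads, gave 5 of the 9 genes higher beside 9.85% of all genes, and the lowest fold change of each of the 5. Without its replicate 2, 5 genes were higher beside 5.40% of all genes, and without its replicate 3, 6 were higher beside 13.1%, the sixth being *Hmox1* (adjusted p = 0.0410). Without replicate 1 of AAV5-*V1+V2*, *Cybb* was still higher by 2.14 on the log2 scale (adjusted p = 0.00128). Without any 1 of the AAV5-*Gfp* libraries, no gene of the 9 oxidase and redox lists was called in either direction by edgeR, except 1 of the 12 activation genes without replicate 1. The macrophage markers called higher then numbered 5 without AAV5-*Gfp* replicate 1 and 0 without replicate 2 or 3, where 15 and 16 had an unadjusted p under 0.05. Without replicate 2 of AAV5-*V1+V2*, the called genes of the thioredoxin, glutathione, and NRF2 lists were lost, and 1 gene of heme and iron handling was higher. Without its replicate 3, 4 genes of NRF2 regulation and 4 of heme and iron handling were higher.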

How the data were processed

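RNA of injected DRGs was sequenced in 6 libraries, which were grouped by their labels (3 AAV5-*Gfp* and 3 AAV5-*V1+V2*). Total RNA was extracted with an RNeasy kit and libraries were made with a stranded total RNA kit. The authors deposited a table of unnormalized read counts, with 1 row for each gene. The submitters' notes name the builds GRCm38 and mm10. The aligner, the counting program, its annotation, and its use of strand are not given in the sources used here.

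Counts were analyzed in R 4.3.3 with edgeR 4.0.16 (filterByExpr with the group, TMM, glmQLFit and glmQLFTest without a covariate), and Benjamini-Hochberg adjustment covered all genes tested. Standard errors were derived from each coefficient and its F. Total counts per library are given with the results. Within groups, chi-square per degree of freedom was 8.27 to 48.9 for the pairs of libraries, well beyond sampling noise. Ratios used a pseudocount of 0.5. Positions and exonic lengths came from GENCODE M21 and promoters from RefSeq. The calculations were tested on simulated data that used the same spread setting for every gene in both groups. That check does not show how often genes are falsely called at the spread of these libraries. All 9 genes were named, *Rac1*, *Rap1a*, and *Cybc1* of the complex, the 5 genes most correlated with *Cybb* and with *Nox4*, and of the other lists at most 3 genes, those with the smallest adjusted p, except further genes said in the text to have been named after their values were seen. One gene of the oxidase complex is not reported here and is left out of its counts. The genes and lists were chosen with earlier results of these data known. Alternatives used DESeq2 1.42.0, limma-voom (limma 3.58.1), other normalizations and filters, a replicate block, and leaving out each library.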

Additional observations from a re-analysis of the deposited data

How the results depend on the processing

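Across 10 alternatives to the normalization, the filter, and the test, the 5 calls for *Cybb*, *Cyba*, *Ncf1*, *Ncf4*, and *Rac2* held, with the highest adjusted p at 0.0497 for *Ncf4*, and between 5 and 6 of the 9 genes were higher and 0 lower. *Hmox1* passed with DESeq2 (log2 fold change 0.70, adjusted p = 0.0307) and with edgeR's exact test (0.70, adjusted p = 0.0413). *Sod2* changed sign with library totals only, to 0.0061, a setting that moved the median of all genes to 0.058. DESeq2 called 1606 genes lower, where edgeR's quasi-likelihood test called 980. The cause of these differences was not tested.

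Leaving out each library in turn, genes higher ranged from 12 to 2474, genes lower from 0 to 1446, and members higher from 0 to 6. The log2 fold change ranged from 2.14 to 3.20 for *Cybb*, from 1.96 to 2.96 for *Cyba*, from 1.59 to 2.43 for *Ncf1*, from 1.36 to 2.25 for *Ncf4*, from 1.77 to 2.49 for *Rac2*, and from 0.37 to 0.88 for *Hmox1*. Fits without a library have fewer degrees of freedom, and the part of this in these ranges was not tested.

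Libraries with the same replicate number were weakly correlated in their deviations from the group means (r of 0.036, 0.066, and 0.107), and nothing in the labels pairs them. With a replicate block, 2118 genes were higher and 1341 lower, and 5 of the 9 genes were higher, with no call changed among them. At depths of about equal size, genes with few reads, such as *Cyba* with AAV5-*Gfp*, were measured with the largest counting error.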
